A study of Zea mays with 2 samples.

Results

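Expansins of the maize stem were described in the dominant dwarf mutant D11 and in the wild type (WT). The members were all probe sets of the Maize Genome Array that are paired with a single gene named expA or expB followed by a number. This rule found 12 of 1108 named genes, read by 17 of the 17621 probe sets other than the AFFX controls. Of the 17621, 66 are reporter probe sets by their identifiers (RPTR). They were 5 alpha-expansin genes with 7 probe sets and 7 beta-expansin genes with 10 probe sets. The reference gene table names 16 expansin genes, and expB1, expB2, expB10 and expB11 were not paired with a probe set in the tables used here.

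Total RNA came from stems at tassel emergence, with 1 array of the D11 mutant and 1 array of WT, labelled as inbred line Mo17. D11 was found among F1 plants of Mo17 crossed with the inbred line HN06 and was then kept as advanced backcross populations with Mo17, B73 and W22 as nuclear backgrounds. Which of these populations gave the RNA of the D11 array, and from how many plants, is not given in the sources used here. The D11 over WT ratio can therefore hold differences of genetic background, which cannot be told apart from those of the mutation. As each genotype had 1 array, the differences have no replicate check, no error can be given, and no test was made. In a stem sample, less RNA per cell and fewer cells of a type cannot be told apart either.

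Expansins are small secreted proteins that loosen the plant cell wall at acid pH without cutting its main polymers, so that a cell under turgor can extend. Alpha-expansins act on the contacts between cellulose and other wall polymers. Beta-expansins are numerous in grasses, and a subgroup that includes expB9 is secreted in large amounts by grass pollen. The plasma membrane proton pump lowers the pH of the wall, and gibberellin (GA) promotes internode elongation. In deepwater rice, expansin transcripts rise with internode growth. As D11 is a dwarf, the comparison asks whether expansin signals differ between its stem and that of WT.

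Most expansin probe sets differed by less than 2-fold between the stems, and none differed by 5-fold, the threshold of the study. The signal of a probe set is the MAS 5.0 intensity, which the authors corrected for background and scaled per array, and the log2 ratio is log2 of the D11 signal over the WT signal. At 5-fold, 0 of 17 members were higher in D11 and 0 were lower, beside 2.26% of all 17621 probe sets higher and 2.57% lower. These shares include probe sets at background, and the study listed fewer genes past 5-fold. At 2-fold, 2 of 17 were higher, beside 9.93% of the 17621, and 2 of 17 were lower, beside 9.83%. The other 13 lay within 2-fold by the deposited signals. Against all 17621 probe sets, both counts are near the background. Signals above those of control probe sets that match no maize transcript were found in both arrays for 15 members, of which the same 2 and 2 differed by 2-fold and 0 by 5-fold. Of all 12462 such probe sets, 6.2% were 2-fold higher and 3.95% lower, and 0.714% were 5-fold higher and 0.177% lower. At 2-fold, 2 of 15 is a larger share than these in each direction, but nothing was read from counts as small as these. Both lower members are probe sets of expA4, whose brightest probe set lay within 2-fold. By the brightest probe set of each gene, expA3 and expB3 were the 2 genes past 2-fold, both higher in D11. The median log2 ratio of the 17 probe sets was -0.17, beside 0.03 for all 17621. With each gene taken by its brightest probe set, the median was 0.16 over the 12 genes and 0.11 over the 11 genes above background, so the sign of this small median depended on how genes were counted.

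Only technical precision can be read, from controls on the same arrays. The 63 probe sets of bacterial spike transcripts had log2 ratios with an SD of 0.20, and the largest difference among them was 1.38-fold. As the spikes are bacterial, this spread holds no difference between plants. The Tag and TrpnX control probe sets have no target in maize. Their highest signal was 24.7 on the D11 array and 27.6 on the WT array, and signals no higher than this are called background here. Over the 12462 probe sets above background in both arrays, the SD of the log2 ratios was 0.67. Among 128 named genes with at least 2 probe sets above background in both arrays, the ratios of the same gene spanned a median of 0.29 on the log2 scale, and the 90th percentile of this span was 0.79. As a sign of RNA integrity, control probe sets at both ends of a transcript were compared. For 6 of 7 pairs the 3′ over 5′ quotient was lower in D11. Actin and GAPDH each gave 2 of the pairs, and those of GAPDH went opposite ways (3.66 in D11 and 2.04 in WT, 1.49 and 1.84). The quotients ran from 0.18 to 27.6 in D11 and from 1.15 to 42.4 in WT. The part of RNA integrity in the expansin ratios was not tested. Of the 17 members, 15 were above background in both arrays, 9 of them lower in D11 and 6 higher. Of the 12462 probe sets above background, 5612 were lower and 6850 higher. The 3 probe sets of expA4 are among the 9. With each gene taken by its brightest probe set, 6 of the 11 genes above background were higher in D11 and 5 lower, so no leaning of the family is read from these counts. None of the 17 has an identifier that marks probes shared between genes.

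**Figure D1:**
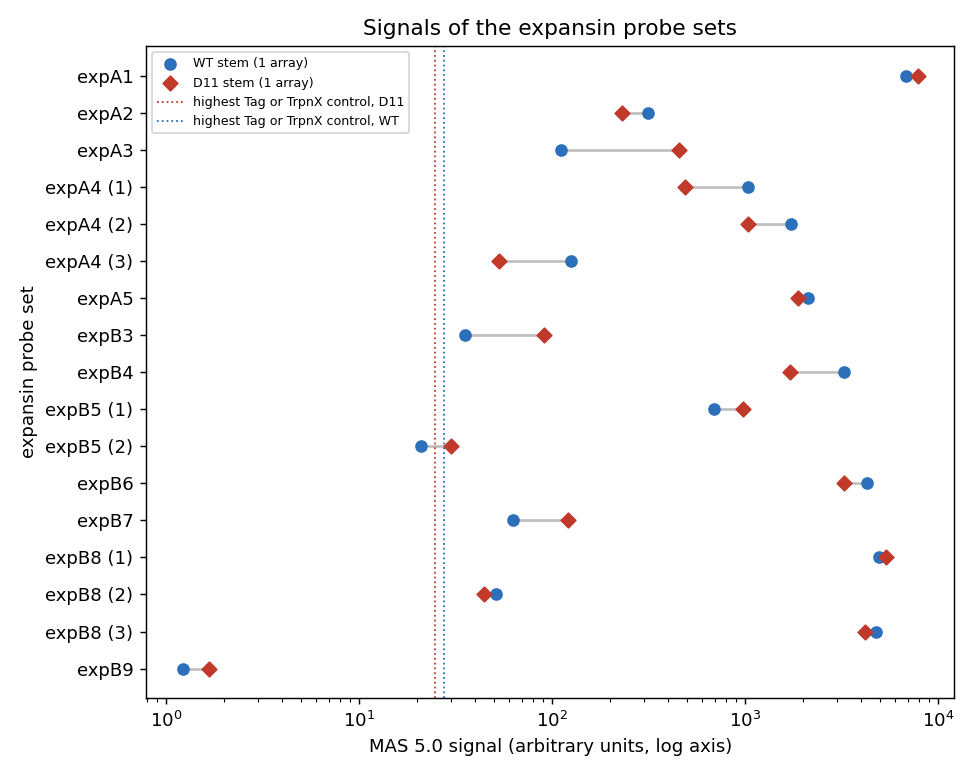
MAS 5.0 signal of each expansin probe set (log axis, arbitrary units) in the D11 stem (red diamonds) and the WT stem (blue circles), 1 array each, with numbers in brackets for several probe sets of a gene in the order of their identifiers. Dotted lines mark the highest Tag or TrpnX control of each array, 24.7 in D11 and 27.6 in WT, and expB9 lies under both.

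Among the alpha-expansins, expA3 (LOC541905) was higher in D11 and expA4 was lower by all its probe sets, while the other members stayed within 1.5-fold. The probe set of expA3 read 456 in D11 against 112 in WT. The D11 signal was above the median of its array, 191, and the WT signal was under that of its own array, 165. This is a log2 ratio of 2.03, or 4.08-fold higher in D11, the largest ratio among the members above background in both arrays. Of the 12462 probe sets above background in both arrays, 1.12% had a ratio at least as high. The gene has no second probe set among the members, so this ratio has no check within the arrays.

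The gene expA4 was read by 3 probe sets. The first of them, in the order of their identifiers, read 492 in D11 against 1042 in WT, or 2.12-fold lower in D11. The second read 1037 in D11 against 1742 in WT, or 1.68-fold lower. The last was weaker, with 53.3 in D11 against 126 in WT, or 2.36-fold lower. All 3 were thus lower in D11. Their log2 ratios were -1.08, -0.75 and -1.24, a span of 0.49. This span is wider than the median of 0.29 for named genes and lies within their 90th percentile. The second and the last were designed on the same source sequence, so they are not independent readings of the gene.

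The remaining alpha-expansins were close between the genotypes. The gene expA1 (LOC541904) read 7843 in D11 against 6814 in WT, and its log2 ratio of 0.20 was about the SD of the spike controls. The gene expA5 (LOC541907) had 1887 in D11 and 2130 in WT, a log2 ratio of -0.17. The gene expA2 (LOC542648) read 230 in D11 against 316 in WT, or 1.37-fold lower in D11. Of the 7 alpha-expansin probe sets, 5 were lower in D11 and 2 were higher, and their median log2 ratio was -0.46. All 7 were above background, where 45.0% of all probe sets were lower in D11. The median rests on expA4, which gives 3 of the 7 values, and over the 5 genes it was -0.17.

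**Figure D2:**
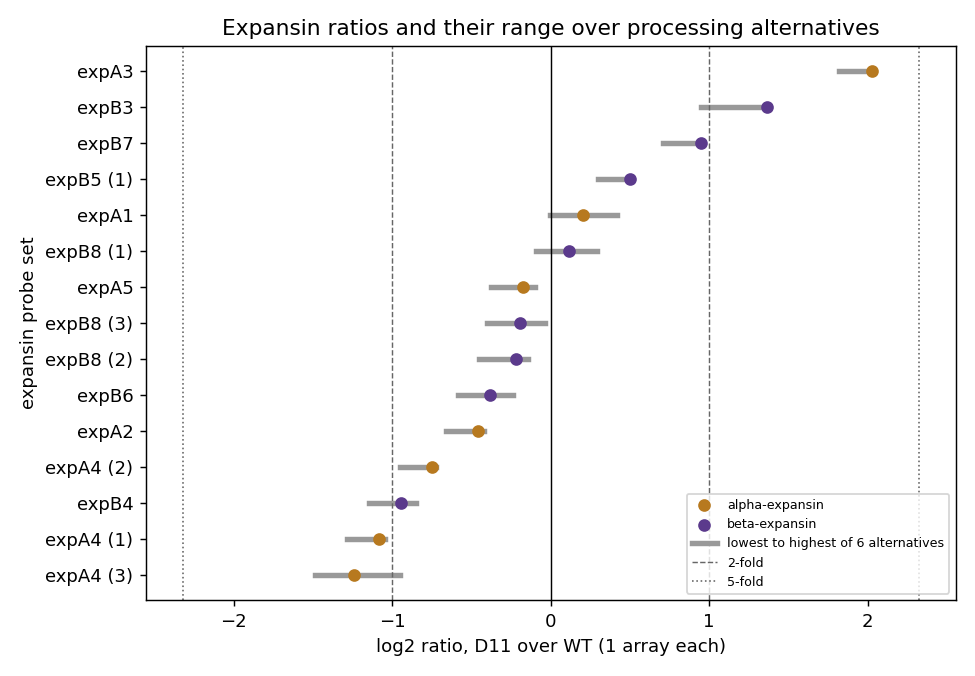
Log2 ratio of D11 over WT (x axis) for the 15 expansin probe sets above background in both arrays, sorted by ratio, with alpha-expansins in brown and beta-expansins in purple. Grey bars span the lowest to the highest value over 6 processing alternatives and are no error bars, and the bars of expA1 and of the first expB8 probe set reach across 0.

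Of the beta-expansins, expB3 and expB7 had higher signals in D11 and expB4 had a lower signal. The probe set of expB3 (LOC541908) read 91.5 in D11 against 35.5 in WT, or 2.58-fold higher in D11. Both signals were under the median of their array, and the WT signal was little above the controls. With 24.7 added to all values, which draws ratios of dim probe sets toward 0, the log2 ratio of expB3 was 0.95 instead of 1.37, under 2-fold. The probe set of expB7 (LOC542649) read 122 in D11 against 63.1 in WT, or 1.93-fold higher in D11. It was also under the median in both arrays. The probe set of expB4 (LOC541909) was above the median in both arrays, with 1703 in D11 against 3272 in WT, or 1.92-fold lower in D11. Of the probe sets above background in both arrays, 4.36% had a ratio at least as low as that of expB4.

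The other beta-expansins above background differed by less than 1.5-fold. The gene expB8 (LOC542496) was read by 3 probe sets, of which the first had 5362 in D11 and 4957 in WT. The second was weak, with 44.3 in D11 and 51.6 in WT. The last had 4177 in D11 and 4783 in WT. Their log2 ratios were 0.11, -0.22 and -0.20, so they went to both sides of 0 within a span of 0.33, and no direction can be given for this gene. The gene expB6 (LOC542566) read 3280 in D11 against 4269 in WT, or 1.30-fold lower in D11. The gene expB5 (LOC541910) had 981 in D11 and 692 in WT by its brighter probe set, which is 1.42-fold higher in D11. Its other probe set had 30.0 in D11 and a WT signal of 21.0, which is background, so that only a bound of at least 1.09-fold higher can be given. By their identifiers, both probe sets of expB5 share a source sequence, as do the second and the last of expB8. Within each gene they are thus not independent readings. The identifiers differ in the letter A or S, and which strand each probe set reads was not tested.

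The pollen expansin expB9 (LOC542106) had 1.68 in D11 and 1.22 in WT. Both values are under the highest of the Tag and TrpnX controls, so no fold change is given. Other pollen genes were also at or near background, as 3 of 5 probe sets for profilins and actin-depolymerizing factors of pollen lay under the controls of both arrays. The summed signal of these 5 was 65.0 in D11 and 133 in WT. The 2 others, PRO1 and PRO3, were above the controls in WT only, with 47.0 and 47.2, and the WT signals were at least 1.90-fold and 1.91-fold higher than in D11. Over the 10 beta-expansin probe sets the median log2 ratio was 0.28. This includes expB9, and it was -0.02 with signals under the highest control raised to it. Of the 8 probe sets above background in both arrays, 4 were higher in D11 and 4 were lower, beside 55.0% and 45.0% of all such probe sets. With each gene taken by its brightest probe set, the median was 0.45 over the 7 beta-expansin genes and 0.31 over the 6 above background, of which 4 were higher and 2 lower.

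**Figure D3:**
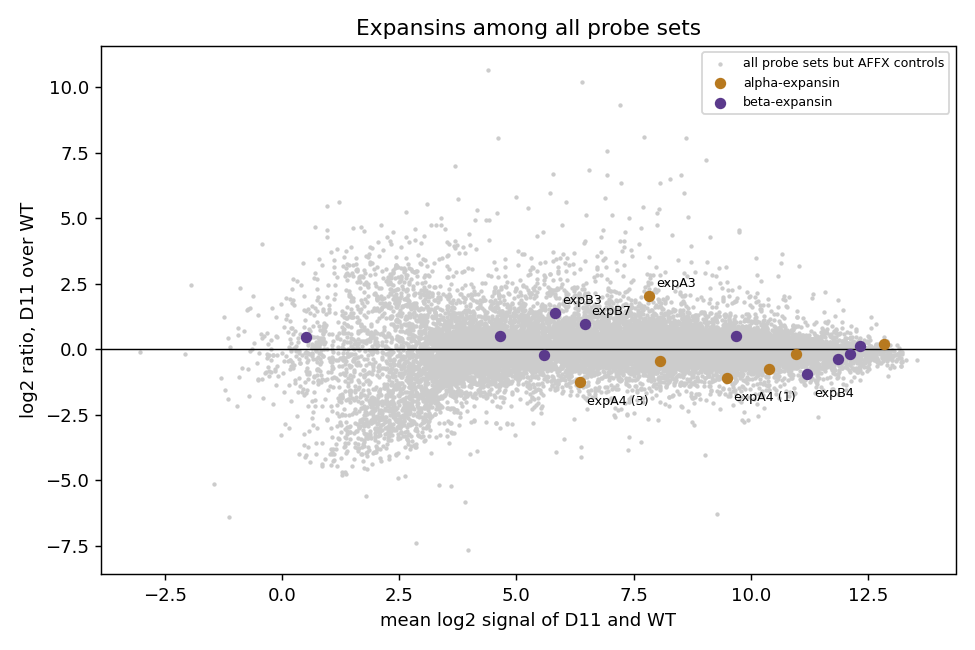
Log2 ratio of D11 over WT (y axis) against the mean log2 signal of both arrays (x axis) for the 17621 probe sets other than AFFX controls (grey), with alpha-expansins in brown and beta-expansins in purple. The members with the largest ratios are named, expA3 at 2.03 is the highest, and the leftmost member, without a name, is expB9.

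In order of their ratios, expA3 stood 0.66 above expB3 on the log2 scale, which is more than the SD of the spike controls, 0.20, and under the 90th percentile of the span within genes, 0.79. Of 14 steps between neighbours in this order, 8 were no larger than this SD. The 6 others were those from expA3 to expB3, from expB3 to expB7, from expB7 to expB5, from expB5 to expA1, from the first expB8 probe set to expA5, and from expA2 to the second expA4 probe set. All 14 were under the 90th percentile of the span within genes, so with 1 array per genotype the order of no neighbouring pair is settled.

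By the order of genes in the reference assembly Zm-B73-REFERENCE-NAM-5.0, which was used for names and neighbours only, expB8 and expB5 have 1 gene between them. The log2 ratio was 0.50 for the brighter probe set of expB5, and between -0.22 and 0.11 for those of expB8, a gap that lies within the span of 0.79 found within single genes. The genes expB7 and expB6 have 5 genes between them. Here expB7 was higher in D11, with a log2 ratio of 0.95, and expB6 lower, with -0.38. The next nearest pair with probe sets, expB5 and expB9, has 54 genes between them.

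Among other genes of the growing wall, the xyloglucan endotransglycosylase gene xet1 (LOC542312), for an enzyme that cuts and rejoins xyloglucan, read 202 in D11 against 90.7 in WT, or 2.22-fold higher in D11. A probe set named xyl1, which the pattern for xyloglucan enzymes also took, was at background in both arrays. All 13 probe sets for cellulose synthase, the enzyme complex that spins cellulose into the wall, were above background, and 0 of them differed by 2-fold. Of all 12462 probe sets above background, 6.2% were 2-fold higher in D11 and 3.95% lower, so 0 of 13 is near the background. The median log2 ratio of the 13 was -0.26. They ranged from -0.55 for CesA2 to 0.50 for CesA3, and CesA10 had -0.46 and CesA7 had -0.35. All 13 were also above the median of both arrays. The 10 expansin probe sets above the median of both arrays ran from -1.08 to 0.50, and the full range of the expansins, from -1.24 to 2.03, is set by members under the median of at least 1 array. Of the proton pump genes, mha4 (LOC542052) had 3558 in D11 and 4035 in WT. The brighter probe set of mha1 (LOC542303) had 54.2 in D11 and 68.9 in WT, and its other probe set was at background.

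Of 4 genes of GA metabolism, 2 were higher in D11. CYP88A1, the kaurenoic acid oxidase dwarf3 (LOC542580), had 312 in D11 and 52.8 in WT. GA20 (LOC778427), for an oxidase that makes precursors of active GAs, had 98.3 in D11 and a WT signal at background. The D11 signal of GA20 was thus at least 3.56-fold higher. From these arrays the paper already reports KAO, GA20ox1 and GA2ox8 as raised in D11, with RT-PCR of KAO and GA20ox1. The name patterns found no gene named GA2ox8 here. The gene an1, for an early step of GA synthesis, had 123 in D11 and 160 in WT, and the kaurene synthase gene KS (LOC541974) was at background in both arrays. The name patterns had missed an1 and KS, which were added after their values were seen. The log2 ratio of CYP88A1, 2.56, was the only one in these lists above that of expA3 among probe sets above background in both arrays.

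**Figure D4:**
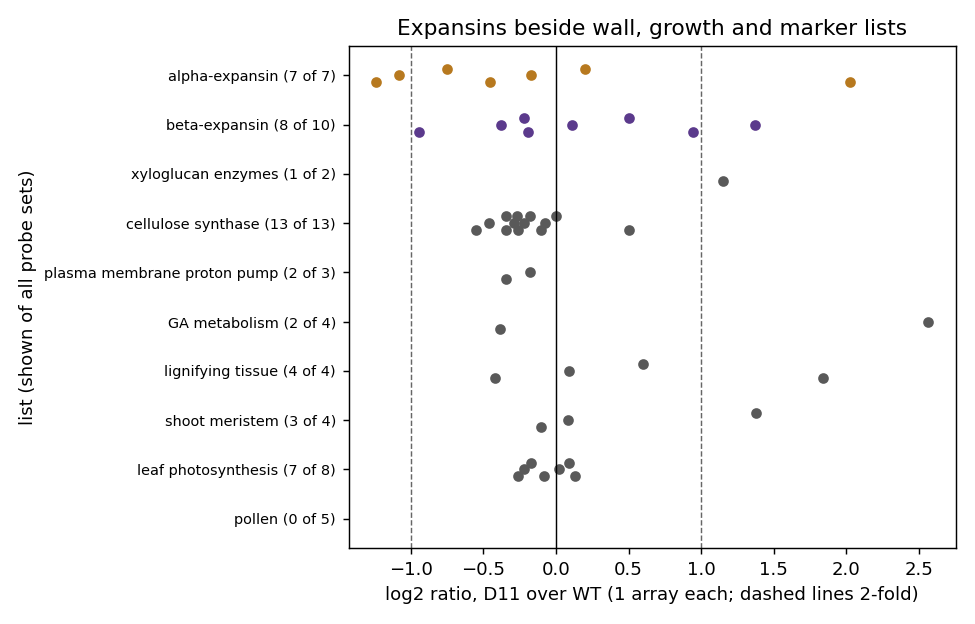
Log2 ratio of D11 over WT (x axis) for the expansins and for lists of wall, growth and marker genes (rows), 1 point per probe set above background in both arrays, with the number shown of all probe sets in brackets and dashed lines at 2-fold. Cellulose synthase probe sets lie between -0.55 and 0.50 and the expansins between -1.24 and 2.03, with those above the median of both arrays between -1.08 and 0.50, and none of the 5 pollen probe sets is shown.

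Markers of tissues that a stem sample can hold were compared beside these values. No single gene of the lists marks the stem alone. The lignification genes BM1 (7010 in D11 and 6585 in WT) and 4CL (3285 and 4395) were bright in both arrays, and 1 of 4 probe sets of this list, CCR, was at least 2-fold higher in D11, with 3.58-fold. The other of the 4, ccr2, read 453 in D11 against 299 in WT, or 1.52-fold higher in D11. The summed signal of the 4 was 12282 in D11 and 11707 in WT. The leaf photosynthesis genes were bright as well, with a summed signal of 27484 in D11 and 28509 in WT over 8 probe sets. Of these 8, 0 differed by 2-fold. Of all 17621 probe sets, 9.93% were 2-fold higher in D11 and 9.83% lower, and nothing was read from counts in lists this short. Among the 4 meristem genes, kn1 had 1762 in D11 and 1664 in WT, and knox7 had 454 in D11 and 488 in WT. The gene lg3 read 788 in D11 against 303 in WT, or 2.60-fold higher in D11, and lg4b was above background in D11 only (59.7). The summed signal of this list was 3064 in D11 and 2478 in WT. Apart from CCR, lg3 and lg4b, no member of the lignification and meristem lists differed by 2-fold. The part of the tissues that these lists mark in the expansin ratios was not tested.

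The genes nearest to 3 of the expansins in their pair of log2 signals were found among 1435 other named probe sets. With only 2 arrays, this likeness says that both signals were of similar size and nothing more. For expA3 they were the aquaporin gene PIP2-6 (LOC541891), with 511 in D11 and 113 in WT, and the gene of the replication clamp PCNA (LOC542425), with 526 and 95.6. For the brightest probe set of expA4 they were the glutathione transferase gene gst9 (967 and 1649) and L-FNRII (1100 and 1604), for a ferredoxin-NADP reductase. For expB4 they were brk1 (1900 and 3389), whose product acts in actin assembly, and the gene apr (1853 and 3146).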

How the data were processed

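The authors hybridized RNA of D11 and WT stems to 1 array each. The deposited intensities were made by the authors with MAS 5.0, on a linear scale. For the software, the paper gives GeneSpring, whereas Affymetrix Expression Console stands in the submitters' processing notes. Without detection calls, Tag and TrpnX controls gave the level of background. Of 17734 probe sets, 113 AFFX controls were set aside. Gene names came from the platform annotation and a RefSeq gene table, which pair 1452 probe sets with 1 gene, 1 with several and 16168 with none. The gene ID of expA4 had no match in that table, so its symbol was used.

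These tables hold no gene descriptions, so list patterns could be applied to symbols and synonyms only, and those for glucanases, pectin enzymes, structural wall proteins and endosperm found no gene. The members and lists were chosen with earlier results of these data known. All expansins are named, with up to 4 of each other list by the size of the ratio. The leaf photosynthesis genes are given as a list and not by name. Counts past 5-fold, the study's threshold, and past 2-fold were set beside those of all probe sets other than AFFX controls. Precision is limited by the number of arrays. Of the steps, only the ratios were tested on simulated data, with noise of the size of the spike SD. The 5-fold counts were computed on the same data but not checked against a set criterion. Both were run without rescaling and with median centring, quantile normalization and a lowess fit. Python 3.11.15, numpy 2.4.6, pandas 2.3.3, statsmodels 0.14.6 and matplotlib 3.10.9 were used.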

Additional observations from a re-analysis of the deposited data

How the results depend on the processing

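The alternatives were quantile normalization, centring of each array on its median, a lowess fit (span 0.3), scaling by spike controls, an offset of 24.7 (the 25th percentile of all signals), the control floor, minimum signals at the array median, leaving out shared probe sets (which removed no member and so could change nothing), counting each gene a single time, and thresholds of 2-fold and 10-fold. The count of members past 5-fold was 0 in each direction under all of them except 2-fold, which gave 2 higher and 2 lower, the lower both of expA4. Of these alternatives, 10-fold, the offset, the minimum signals and counting each gene a single time could not raise a count of 0, so they are no check of it. The median log2 ratio of -0.17 was -0.38 with centring, which lowered every log2 ratio by 0.20, and 0.16 with each gene counted a single time, where genes with several probe sets, such as expA4, weigh less. With the control floor and each gene counted a single time, a pair of choices added after seeing the data, it was -0.02. Both values include expB9, which is at background, and over the 11 genes above background the median was 0.11. The floor cannot change the 15 members above it. The small ratios of expA1 and of the first expB8 probe set turned from 0.20 to -0.00 and from 0.11 to -0.09 with centring. Centring brought expB4 past 2-fold (-1.15), and the offset took expB3 (0.95) and the last expA4 probe set (-0.95) under it. No paired analysis was possible because each genotype had 1 array, and for the same reason no replicate could be left out. Without the 66 reporter probe sets, an alternative also added later, 9.91% of the others were 2-fold higher and 9.72% lower. Weak signals limit expB3, expB7, expB9, the second probe sets of expB5 and expB8, and the last of expA4.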

Other observations

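The identifiers of 9 further probe sets carry the cluster number of expB8, expA2 or expB9 and were not paired with a gene in the tables used here, so they were not counted as expansins. They were looked at after the values of the members were known. Of these, 6 were above background in both arrays. In the cluster of expB8, 1 of them read 452 in D11 against 1366 in WT, or 3.02-fold lower in D11, while the 3 others of that cluster above background had log2 ratios of 0.48, 0.02 and -0.07. In the cluster of expB9, 1 had 938 in D11 and 844 in WT, whereas the probe set of expB9 itself was at background in both stems. In the cluster of expA2, 1 had 874 in D11 and 1023 in WT, a log2 ratio of -0.23, in the direction of the -0.46 of expA2. Which transcripts these probe sets read was not tested.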
